A study of Mus musculus with 30 samples.

Results

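The response of Braf Smarcb1 knockout thyroid to the MEK inhibitor CKI was compared, gene by gene, with the response of thyroid that carried mutant Braf alone. The quantity described is a difference of 2 responses on the log2 scale, the change from vehicle to CKI in the knockout minus the same change in Braf. It was measured in 12 libraries, 3 in each of 4 groups, out of 28 libraries analysed here and 30 samples in the labels. Of 33924 genes in the table, 19016 had enough counts to be tested, and all of them are members of the comparison.

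The groups were Braf(V600E) treated with vehicle (replicates 2, 4 and 5), Braf(V600E) treated with CH5126766, called CKI in the labels (replicates 1, 4 and 5), Braf(V600E) + Smarcb1 KO with vehicle (replicates 1, 2 and 3) and Braf(V600E) + Smarcb1 KO with CKI (replicates 1, 2 and 4). Every group carried the activating Braf mutation, and dosing lasted 8 days, with death about 2 h after the last dose. The driver of the mutation and of the knockout, and the age of the mice, are not given in the sources used here. The labels carry 2 texts on preparation for every sample. The first has thyroids of wild-type, Arid2 and Smarcb1 mice frozen whole, and the other has YFP+ cells sorted from dissociated thyroids. Braf and Braf Smarcb1 knockout libraries may therefore have been prepared differently, and genotype and preparation cannot be told apart in a comparison of levels between them. A response is measured within a genotype. The difference of the 2 responses compares genotypes, so there too genotype and preparation cannot be told apart. Nothing in the labels ties each library to its own mouse, so the p-values here reflect variation among libraries that may be technical in part or in whole.

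Braf V600E keeps the MAPK pathway on, and thyroid cells with it lose genes of hormone production. MEK inhibitors block the kinase below Braf and can bring such genes back, which is called redifferentiation. SWI/SNF complexes move nucleosomes and open enhancers, and Smarcb1 encodes a core subunit of the BAF and PBAF forms. The title of the series names SWI/SNF mutations, tumour progression and resistance to redifferentiation. The comparison asks which genes the drug moved differently once Smarcb1 was lost.

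Total counts ran from 23879271 to 34400066 per library, and the 10 most abundant genes took 6.48% to 18.5% of them. Levels are in CPM, counts scaled to library size with TMM factors, and describe 1 gene across libraries, not genes against each other. Smarcb1 measured 101, 57.0 and 131 CPM under vehicle and 217, 187 and 194 CPM with CKI in Braf, and 2.28, 10.03 and 17.9 CPM under vehicle and 18.0, 47.4 and 11.9 CPM with CKI in the knockout, so every knockout library lay below every Braf library. The difference in response of Smarcb1 itself did not pass the test (0.31, SE 0.80, adjusted p = 0.931). Braf vehicle replicate 5, Braf CKI replicate 5, knockout vehicle replicate 1 and knockout CKI replicate 2 held both Xist and Y-linked counts, Braf vehicle replicate 4 and knockout vehicle replicate 2 held Xist with almost no Y-linked counts, and the other 6 held Y-linked counts with little or no Xist. Counts of called genes without each library are given below. The thyroid factor Pax8 was present in all 12 libraries, at 196 to 221, 593 to 979, 53.8 to 102 and 208 to 272 CPM in the 4 groups in the order above.

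The response differed for 58 genes in edgeR's quasi-likelihood test at a Benjamini-Hochberg adjusted p under 0.05, or 0.305% of the genes tested. In 21 the difference was positive (0.11%), which is written here as a higher response in the knockout, and in 37 it was negative (0.195%), a lower response. Without adjustment, 2194 genes had a p under 0.05, 967 higher and 1227 lower. CKI itself changed 2466 genes in Braf (13%) and 732 in the knockout (3.85%).

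On the log2 scale the difference in response equals the gap between genotypes with CKI, called the end level, minus the gap under vehicle, called the start level. The start share, minus the start gap over the difference, says how much of the difference was already there under vehicle. Of the 58 genes, 22 had a start share of at least 2/3, 20 had one of at most 1/3, and 16 lay between and are called both-levels genes. The gap under vehicle passed its own test in 43 of the 58 genes (74.1%, against 28.6% of all genes tested). The gap with CKI passed in 35 (60.3%, against 17.1%). These tests use the same libraries as the difference and are not independent of it. A difference that passed is made of these 2 gaps, so a high share of passing gaps follows largely from the choice of genes. Every one of the 22 start genes passed the start test and 1 of them, Plk4, passed the end test. All 20 end genes passed the end test, and 7 of them also passed the start test. The class limits make the gap that names the class at least 2/3 of a difference that passed. That start genes passed the start test and end genes the end test therefore follows largely from the limits.

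The 3 classes split by direction. Among the 37 genes with a lower response, 16 were start genes, 13 both-levels genes and 8 end genes. Among the 21 with a higher response, 6 were start genes, 3 both-levels genes and 12 end genes. A start share above 1 was found in 10 start genes, whose gap kept its sign with CKI and narrowed. It was below 0 in 11 end genes, whose gap under vehicle already had the sign of the gap with CKI and then widened. Close to the class limits lay Slc26a10, with a start share of 0.667, just under the limit of 2/3, and H2-T22, with 0.351. In the wider set of 2194 genes with an unadjusted p under 0.05, 1323 were start genes, 351 both-levels genes and 520 end genes.

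**Figure D1:**
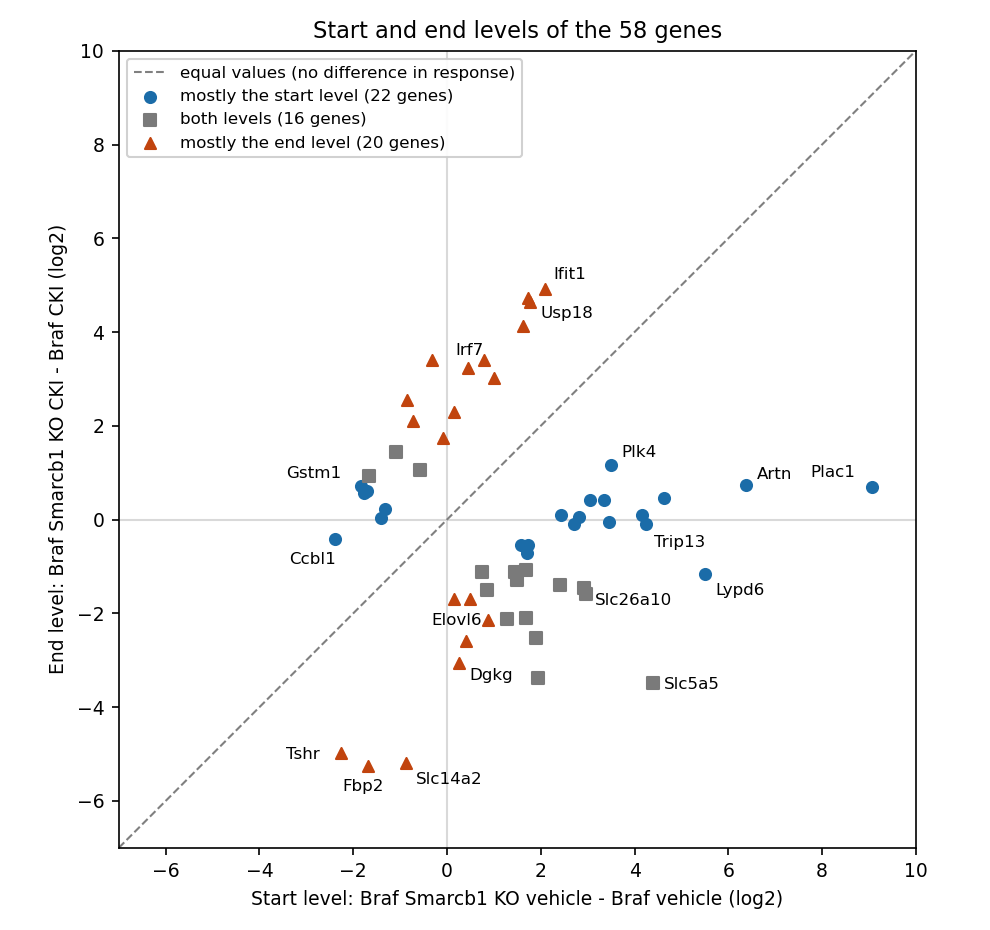
Gap between Braf Smarcb1 knockout and Braf under vehicle (x axis, log2) and with CKI (y axis, log2) for the 58 genes whose drug response differed; each point is 1 gene, coloured and shaped by class, and the dashed line marks equal gaps. The end gap of 21 of the 22 start genes did not pass its test, the exception being Plk4 at 1.16, the interferon genes Usp18 and Ifit1 lie above the line with both gaps positive, and Tshr lies below it with both gaps negative.

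The 2 responses of these genes, which were chosen for their difference, combined as follows. Over all genes tested, 7.96% rose and 5.01% fell in Braf, and 1.8% rose and 2.05% fell in the knockout. Of the genes with a lower response, 23 rose in Braf and did not pass the test in the knockout, 9 fell in the knockout and did not pass in Braf, and 4 did both. The remaining gene, Tshr, rose in both genotypes. Of the genes with a higher response, 16 rose in the knockout without passing in Braf, and 5 fell in Braf without passing in the knockout.

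**Figure D2:**
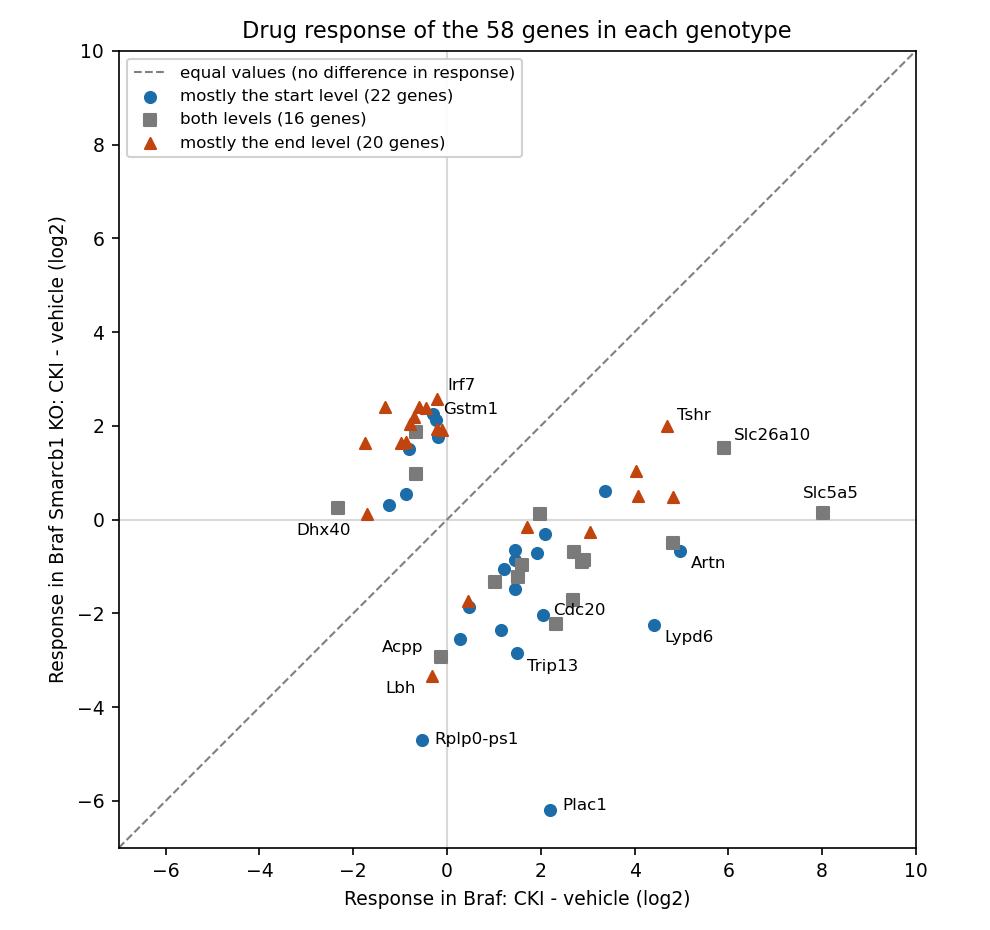
Change with CKI in Braf (x axis, log2) and in Braf Smarcb1 knockout (y axis, log2) for the 58 genes; each point is 1 gene, and the dashed line marks equal responses. Slc5a5 shows the largest rise in Braf of the 58 (8.03) beside 0.15 in the knockout, and Irf7 rose in the knockout (2.58) beside -0.21 in Braf.

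How many genes passed depended on the libraries in the fit and on the tool. A fit of the 12 libraries alone called 5 genes, DESeq2 called 264, and a fit that took the level of leukocyte markers as a covariate called 9. The count fell to 35, 28 and 38 without Braf vehicle replicates 2, 4 and 5, and to 23, 33 and 34 without Braf CKI replicates 1, 4 and 5. It was 59, 30 and 77 without knockout vehicle replicates 1, 2 and 3, and 20, 19 and 45 without knockout CKI replicates 1, 2 and 4. All 58 genes kept the sign of their difference under each of the 20 alternatives run. In every fit that left out 1 library, 13 genes stayed called: Bcl2, Dgkg, Elovl6, Ephx1, Gm11295, Gmnn, Gstm1, Nceh1, Polr3g, Slc26a10, Slc38a1, Trip13 and Usp18. Dhx40 and Lgals3bp lost their call once, without Braf CKI replicate 1, and Irf7 and Spry4 once, without knockout CKI replicate 2.

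**Figure D3:**
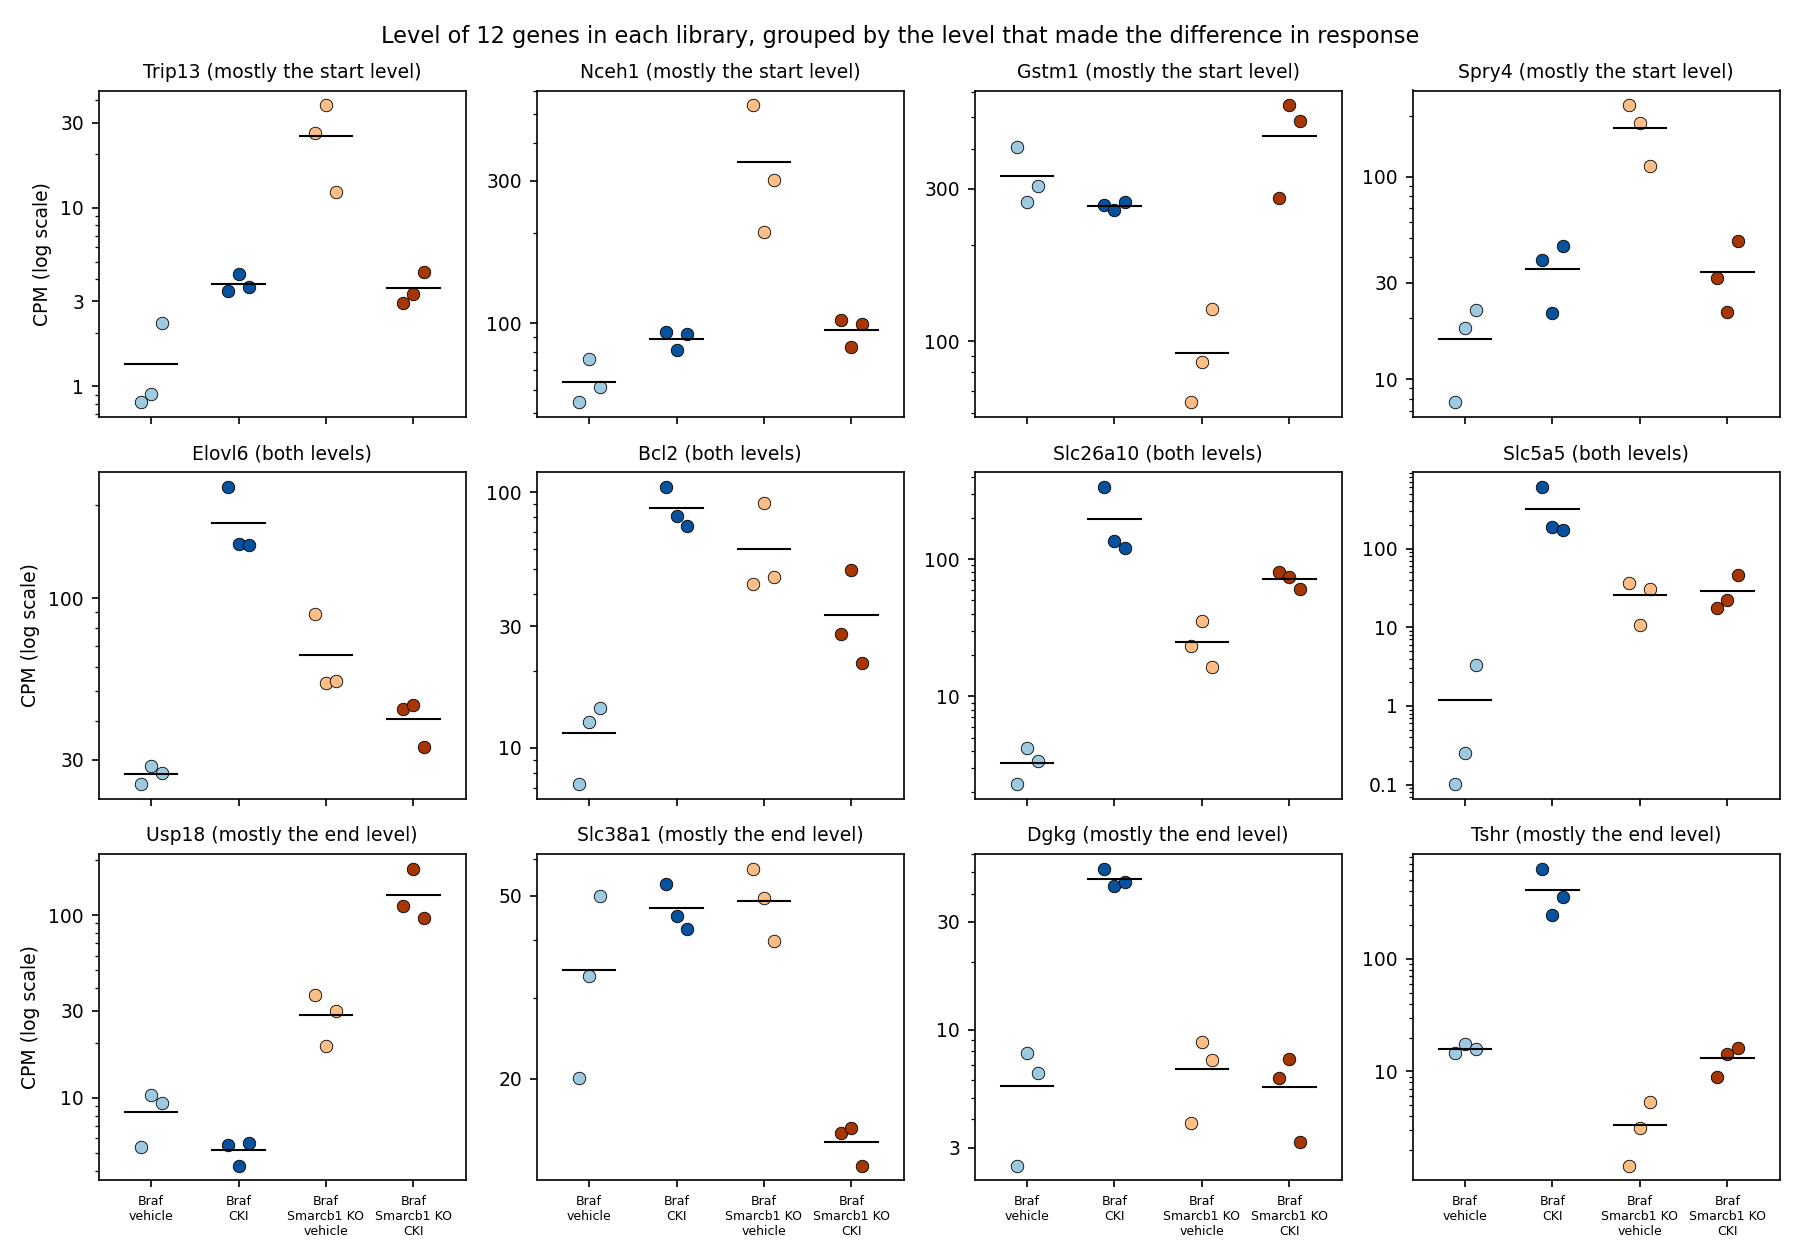
CPM (log axis) of 12 of the 58 genes in each library; points are single libraries in replicate order, and horizontal lines are group means of 3 libraries. Top row, start genes: the knockout vehicle libraries stand apart, and the gap between genotypes with CKI did not pass the test in any of the 4. Middle row, both-levels genes: the Braf vehicle libraries are lowest and the Braf CKI libraries highest on average. Bottom row, end genes: 1 CKI group stands apart from the other 3 groups.

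Of the 12 end genes with a higher response, 8 belong to the interferon system by the lists used here. Those lists hold 36 effectors and 21 receptors and signal transducers among the 19016 genes tested. They were chosen with earlier results of these data known. Interferons bind receptors on the cell surface, and the signal from these switches on antiviral effector genes through a short promoter element, the interferon-stimulated response element. Of 36 listed effectors, 5 had a higher response in the knockout and none a lower one, against 0.11% and 0.195% of all genes tested. The median difference was 1.34 against 0.03 over all genes tested. Without adjustment, 20 of the 36 had a p under 0.05, all of them higher, against 967 higher of 19016 genes tested. The 5 were Oasl1, Rtp4, Ifit3, Isg15 and Ifit1. In the list of 21 interferon receptors and signal transducers, 3 had a higher response (0.11% of all genes tested), among them Usp18 and Irf7.

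Usp18 removes Isg15 from proteins and damps signalling at the type I interferon receptor. It measured 5.40, 10.3 and 9.40 CPM under vehicle and 5.55, 4.26 and 5.65 CPM with CKI in Braf, and 36.4, 19.2 and 29.9 CPM under vehicle and 112, 179 and 95.8 CPM with CKI in the knockout. Under vehicle the knockout libraries already lay above Braf, and with CKI the gap was wider, with no overlap in either comparison. The difference in response was 2.88, SE 0.49, adjusted p = 0.0112. The gap was 1.76, SE 0.35, adjusted p = 0.000882 at the start and 4.65, SE 0.39, adjusted p = 9.27e-08 at the end.

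Irf7, a transcription factor that induces interferon genes, measured 37.9, 31.8 and 31.5 CPM under vehicle and 27.5, 31.4 and 28.5 CPM with CKI in Braf and 63.1, 33.99 and 41.2 CPM under vehicle and 258, 415 and 152 CPM with CKI in the knockout. The 3 knockout CKI libraries stood above all 9 others. Its difference was 2.79, SE 0.50, adjusted p = 0.0152, with a start gap of 0.45 (adjusted p = 0.347) and an end gap of 3.24.

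Ifit1 and Ifit3 encode proteins that bind viral RNA. Ifit1 measured 12.9, 29.8 and 20.01 CPM under vehicle and 18.0, 9.48 and 18.5 CPM with CKI in Braf, and 105, 58.2 and 104 CPM under vehicle and 512, 633 and 249 CPM with CKI in the knockout (2.83, SE 0.61, adjusted p = 0.0446). Ifit3 measured 9.37, 22.5 and 25.5 CPM under vehicle and 9.15, 15.7 and 12.9 CPM with CKI in Braf, and 68.6, 41.2 and 80.1 CPM under vehicle and 268, 601 and 137 CPM with CKI in the knockout (3.01, SE 0.60, adjusted p = 0.0294). In both genes every knockout library exceeded every Braf library, under vehicle and with CKI. Both belong to a family of close copies that may share reads.

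The ubiquitin-like modifier Isg15 measured 15.1, 14.3 and 17.3 CPM under vehicle and 5.35, 10.8 and 9.40 CPM with CKI in Braf, and 52.0, 31.2 and 59.98 CPM under vehicle and 209, 163 and 75.9 CPM with CKI in the knockout (2.52, SE 0.52, adjusted p = 0.034). Rtp4, an interferon-induced chaperone of membrane receptors, measured 12.6, 13.5 and 18.0 CPM under vehicle and 11.6, 16.1 and 13.6 CPM with CKI in Braf, and 38.6, 20.4 and 30.1 CPM under vehicle and 123, 141 and 71.9 CPM with CKI in the knockout (2.02, SE 0.40, adjusted p = 0.025). Both were higher in the knockout at the start and higher again with CKI. Oasl1, a relative of the 2'-5' oligoadenylate synthetases, was level under vehicle (8.18 to 12.2 CPM in Braf and 7.81 to 10.02 CPM in the knockout). With CKI it measured 2.49 to 5.48 CPM in Braf and 39.9 to 54.1 CPM in the knockout, which did not overlap (3.72, SE 0.72, adjusted p = 0.0244).

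Among effectors that did not pass, Oasl2 came closest, with a difference of 1.96 (adjusted p = 0.0516). Mx1, a GTPase that blocks viruses, had 3.32 (adjusted p = 0.252). It averaged 9.28 ± 1.72, 0.654 ± 0.232, 2.51 ± 2.72 and 1.75 ± 0.678 CPM (mean ± SD, n = 3) in the 4 groups and was the 1 effector that fell in Braf. The chemokine Cxcl10 had a difference of -0.20 (adjusted p = 0.968), with 27.1 ± 5.86, 26.2 ± 6.85, 125 ± 111 and 105 ± 88.4 CPM (mean ± SD, n = 3). The effector list as a whole averaged 3.59 to 4.34 log2(CPM + 1) in Braf vehicle, 3.68 to 3.94 in Braf CKI, 4.51 to 4.76 in knockout vehicle and 5.47 to 5.88 in knockout CKI libraries. With CKI, 14 of the 36 rose in the knockout (1.8% of all genes tested), and 1 rose and 1 fell in Braf (7.96% and 5.01%). Under vehicle, 17 were higher and 2 lower in the knockout (14.4% and 14.2% of all genes), and with CKI 25 were higher (7.87%). Of the 12 fits that left out 1 library, Rtp4 kept its call in 6, Ifit3 in 5, Isg15 and Oasl1 in 4 and Ifit1 in 2.

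Transcripts of the interferons themselves were scarce. Of 10 interferon genes, 3 had enough counts to be tested, and Ifna1 was at 0 in all 12 libraries. Ifnb1, the gene of interferon beta, measured 0.465, 0 and 0 CPM in the knockout CKI libraries and 1.22, 0.398 and 0.236 CPM in the Braf vehicle libraries. Sensors of foreign nucleic acid had a median difference of 0.96, and none of 14 passed. The RNA sensors Ddx58 (RIG-I) and Ifih1 (MDA5) had 0.93 (adjusted p = 0.38) and 1.17 (adjusted p = 0.39). Irf9 did not pass (1.10, adjusted p = 0.189), nor did the receptor chains Ifnar1 (-0.44) and Ifnar2 (-0.81).

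Promoters of these genes were read from RefSeq (GRCm38.p6, 250 bases before to 50 after each start), to show the letters that resemble the core of the response element. The letters searched were GAAANNGAAA on both strands, with overlapping matches counted. They occurred in 1131 of 32851 promoters of that length (3.44%) and in 1079 of 27025 genes (3.99%). Among the 21 genes with a higher response, 17 had a promoter entry and 5 of these held a match, and among the 37 with a lower response, 27 had an entry and 0 held one. Of the 36 effectors, 29 had an entry and 14 held a match. Each stretch below runs 5' to 3' on the strand of the gene, with matches in capitals and 25 bases on either side.
Ifit1 (chr19:34640760-34640838, plus strand, 2 matches on the strand opposite the gene): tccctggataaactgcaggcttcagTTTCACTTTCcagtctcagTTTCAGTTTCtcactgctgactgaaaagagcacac
Ifit3 (chr19:34583348-34583441, plus strand, 2 matches on the strand opposite the gene): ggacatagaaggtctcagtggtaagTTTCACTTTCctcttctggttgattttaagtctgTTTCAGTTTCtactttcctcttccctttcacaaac
Isg15 (chr4:156200850-156200921, minus strand, 3 overlapping matches): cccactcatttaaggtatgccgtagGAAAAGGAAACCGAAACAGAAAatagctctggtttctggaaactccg
H2-T23 (chr17:36032791-36032850, minus strand, 1 match on the strand opposite the gene): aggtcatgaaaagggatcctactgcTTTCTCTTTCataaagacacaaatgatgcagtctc
H2-T22 (chr17:36042899-36042958, minus strand, 1 match on the strand opposite the gene): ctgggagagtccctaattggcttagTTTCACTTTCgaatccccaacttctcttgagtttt
Measured from the start of the gene, the first match began 104 bases upstream in Ifit1, 156 in Ifit3, 78 in Isg15, 124 in H2-T23 and 191 in H2-T22. A match describes the letters only. No binding was measured here.

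H2-T23 and H2-T22 encode nonclassical class I molecules, which present peptides or bind receptors of natural killer and T cells. H2-T23 measured 534, 308 and 458 CPM under vehicle and 203, 281 and 256 CPM with CKI in Braf, and 142, 108 and 147 CPM under vehicle and 328, 437 and 357 CPM with CKI in the knockout (2.31, SE 0.50, adjusted p = 0.0448). It was the reverse of the effectors at the start: lower in the knockout under vehicle (-1.71, adjusted p = 0.00137), and with CKI above the Braf CKI libraries by a gap that did not pass (0.60, adjusted p = 0.266). H2-T22, a both-levels gene, measured 36.7 to 43.8 CPM with vehicle and 53.5 to 102 CPM on the drug in the knockout, against 51.1 to 69.8 CPM with vehicle and 34.3 to 39.1 CPM on the drug in Braf (1.63, SE 0.32, adjusted p = 0.025). H2-T22 rose in the knockout (0.98, adjusted p = 0.0185). Both genes have close copies in the H2-T region that may share reads. Of 13 class I antigen presentation genes, H2-T23 passed, with a higher response (0.11% of all genes tested). The median difference was 0.30 and had no stable sign: it was 0.51 and -0.02 without knockout vehicle replicates 2 and 3, and 0.09 and 0.18 without knockout CKI replicates 1 and 4. The chain shared by class I molecules, B2m, had 1.20 (adjusted p = 0.254) and the classical H2-K1 had -0.11 (adjusted p = 0.973).

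The other end genes with a higher response were Lgals3bp, Dhx40, Gm4951 and 3110007F17Rik, which RefSeq names Cldn34c1. Lgals3bp, a secreted glycoprotein that binds galectin 3, measured 154, 211 and 201 CPM under vehicle and 87.3, 119 and 122 CPM with CKI in Braf, and 187, 92.3 and 62.5 CPM under vehicle and 276, 503 and 626 CPM with CKI in the knockout (2.82, SE 0.52, adjusted p = 0.0167). The knockout CKI libraries were the highest of the 12. Dhx40, an RNA helicase of the DEAH-box family, differed in shape: it fell in Braf (204 to 226 CPM with vehicle and 59.0 to 70.5 CPM on the drug), while the knockout measured 157 to 246 CPM with vehicle and 167 to 300.2 CPM on the drug (1.83, SE 0.34, adjusted p = 0.0188). Gm4951 fell in Braf (28.3 to 42.8 CPM with vehicle and 9.22 to 11.98 CPM on the drug) and measured 10.1 to 37.2 CPM with vehicle and 20.4 to 99.9 CPM on the drug in the knockout, where the libraries overlapped (3.39, SE 0.69, adjusted p = 0.032). 3110007F17Rik rose in the knockout (2.68 to 4.57 CPM with vehicle and 8.43 to 13.7 CPM on the drug), with 1.48 to 2.50 CPM with vehicle and 0.746 to 1.31 CPM on the drug in Braf (2.60, SE 0.51, adjusted p = 0.0244).

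Leukocyte markers were read beside these genes. All 7, among them Ptprc (CD45), fell with CKI in Braf (5.01% of all genes tested), and 0 passed in the knockout. Their summed level was 484 to 903 CPM in Braf vehicle, 65.7 to 178 in Braf CKI, 98.7 to 296 in knockout vehicle and 82.1 to 135 in knockout CKI libraries, and no marker was at 0 in all libraries. None of the 7 passed in the difference (median 1.83, 5 at an unadjusted p under 0.05, against 2194 of 19016 genes tested). In the fit that took their level as a covariate, the median difference of the effectors was 1.20, and of the 8 interferon genes Irf7 stayed called. Beyond this covariate their part in the result was not tested. In bulk samples fewer cells of a type and less RNA per cell cannot be told apart.

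Genes of the cell cycle were read from 2 lists, mitosis and DNA replication. Cells copy DNA from licensed origins in S phase and separate the copies in mitosis under the spindle checkpoint. Under vehicle, 14 of 15 mitosis genes and 12 of 15 replication genes were higher in the knockout than in Braf, against 14.4% of all genes tested. With CKI, 0 mitosis genes and 2 replication genes were higher, against 7.87%. The median difference in response was -2.57 for mitosis and -1.05 for replication genes, the latter -0.65 without knockout vehicle replicate 1. Of each list 1 gene passed in the difference itself, Cdc20 and Ccne2, both lower (0.195% of all genes tested). An unadjusted p under 0.05 was found for 12 and 6 genes, all lower, against 1227 lower of 19016 genes tested.

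Cdc20 activates the ubiquitin ligase that starts anaphase. It measured 2.80, 4.30 and 8.26 CPM under vehicle and 8.50, 25.7 and 29.1 CPM with CKI in Braf, and 69.5, 168 and 38.2 CPM under vehicle and 17.1, 20.3 and 30.4 CPM with CKI in the knockout. The knockout vehicle libraries were the highest, and the CKI libraries of the 2 genotypes overlapped. The difference was -4.06, SE 0.75, adjusted p = 0.017, the start gap 4.16 (adjusted p = 3.87e-05) and the end gap 0.10 (adjusted p = 0.933). Cdc20 rose with CKI in Braf (2.04, adjusted p = 0.0185) and fell in the knockout (-2.02, adjusted p = 0.0325).

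Trip13, an ATPase that silences the spindle checkpoint, measured 0.815, 0.904 and 2.28 CPM under vehicle and 3.41, 4.26 and 3.62 CPM with CKI in Braf, and 26.2, 37.5 and 12.2 CPM under vehicle and 2.94, 3.29 and 4.40 CPM with CKI in the knockout (-4.32, SE 0.75, adjusted p = 0.0114). The difference came from the start, where the gap was 4.24, SE 0.58, adjusted p = 2.97e-05. Ccne2, which encodes cyclin E2, measured 4.38, 4.27 and 3.26 CPM under vehicle and 4.51, 4.42 and 5.41 CPM with CKI in Braf, and 35.7, 24.1 and 18.5 CPM under vehicle and 4.48, 4.14 and 4.83 CPM with CKI in the knockout (-2.81, SE 0.55, adjusted p = 0.0244). Outside the knockout vehicle group its 9 libraries lay between 3.26 and 5.41 CPM. Ccne2 fell in the knockout (-2.54, adjusted p = 0.00111) and did not pass in Braf (0.27, adjusted p = 0.693).

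Plk4, the kinase that starts centriole duplication, measured 2.95, 2.93 and 4.17 CPM under vehicle and 9.44, 8.72 and 9.54 CPM with CKI in Braf, and 34.6, 51.0 and 27.5 CPM under vehicle and 22.4, 18.8 and 20.8 CPM with CKI in the knockout (-2.33, SE 0.43, adjusted p = 0.017). It was higher in the knockout both under vehicle (3.49) and with CKI (1.16, adjusted p = 0.0103), and the gap narrowed. Plk4 rose in Braf (1.46, adjusted p = 0.00673) and had -0.87 in the knockout (adjusted p = 0.109). Dbf4, the activating subunit of the kinase that fires replication origins, measured 1.78, 2.24 and 2.95 CPM under vehicle and 6.13, 7.67 and 5.37 CPM with CKI in Braf and 15.2, 33.0 and 23.4 CPM under vehicle and 7.38, 7.61 and 10.7 CPM with CKI in the knockout. It rose in Braf (1.45, adjusted p = 0.0216) and fell in the knockout (-1.48, adjusted p = 0.0348), for a difference of -2.93, SE 0.56, adjusted p = 0.0206.

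Rfc5, a subunit of the loader that places the replication clamp on DNA, had a difference of -2.28, SE 0.47, adjusted p = 0.0336, with knockout vehicle libraries at 27.3 to 53.6 CPM against 6.26 to 15.6 CPM in Braf. Cdca7l, a cell division cycle associated gene, had -2.63, SE 0.52, adjusted p = 0.0251, with 19.4 to 43.0 against 2.09 to 5.86 CPM under vehicle. Both rose with CKI in Braf. Of the 12 fits without 1 library, Plk4 kept its call in 9, Cdc20 in 8, Dbf4 in 6, Ccne2 and Rfc5 in 4, and Cdca7l and Cdca7 in 3. In the fit with the leukocyte covariate, and in the one of the 12 libraries alone, none of the genes Trip13, Cdc20, Plk4, Dbf4, Ccne2, Cdca7l, Rfc5, Cdca7 and Gmnn stayed called. With that covariate the start class held 1 gene instead of 22, and the part of the leukocyte level in these calls was not tested further. A pair of cell cycle genes were both-levels genes. Cdca7, a relative of Cdca7l, measured 18.2, 30.2 and 20.4 CPM under vehicle and 55.4, 39.4 and 44.6 CPM with CKI in Braf, and 49.1, 49.8 and 24.8 CPM under vehicle and 14.7, 18.3 and 16.2 CPM with CKI in the knockout (-2.35, SE 0.48, adjusted p = 0.0311), so the knockout ended below Braf (-1.50, adjusted p = 0.00381). Gmnn, which encodes geminin, an inhibitor of origin licensing, measured 15.4, 16.8 and 14.5 CPM under vehicle and 42.3, 54.9 and 45.3 CPM with CKI in Braf, and 59.0, 38.6 and 30.2 CPM under vehicle and 17.1, 30.4 and 18.2 CPM with CKI in the knockout (-2.57, SE 0.42, adjusted p = 0.0107). Both gaps of Gmnn passed, 1.45 at the start and -1.12 at the end.

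Other proliferation markers did not pass in the difference. Mki67 averaged 7.22 ± 6.62 and 5.28 ± 3.66 CPM in Braf without and with CKI, and 26.5 ± 9.96 and 5.85 ± 4.43 CPM in the knockout (mean ± SD, n = 3; difference -1.72, adjusted p = 0.52). The reductase subunit Rrm2 had a larger difference of -3.46 (adjusted p = 0.0747), and its gap went from 4.31 under vehicle to 0.85 with CKI. Pcna, the replication clamp, had -0.08 (adjusted p = 0.972). The mean level of the mitosis list was 6.53, 6.27 and 4.76 log2(CPM + 1) in knockout vehicle replicates 1, 2 and 3, against 2.38 to 4.07 in Braf vehicle, 1.92 to 4.09 in Braf CKI and 2.91 to 4.22 in knockout CKI libraries. Knockout vehicle replicate 3 thus lay between the other 2 libraries of its group and the rest.

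**Figure D4:**
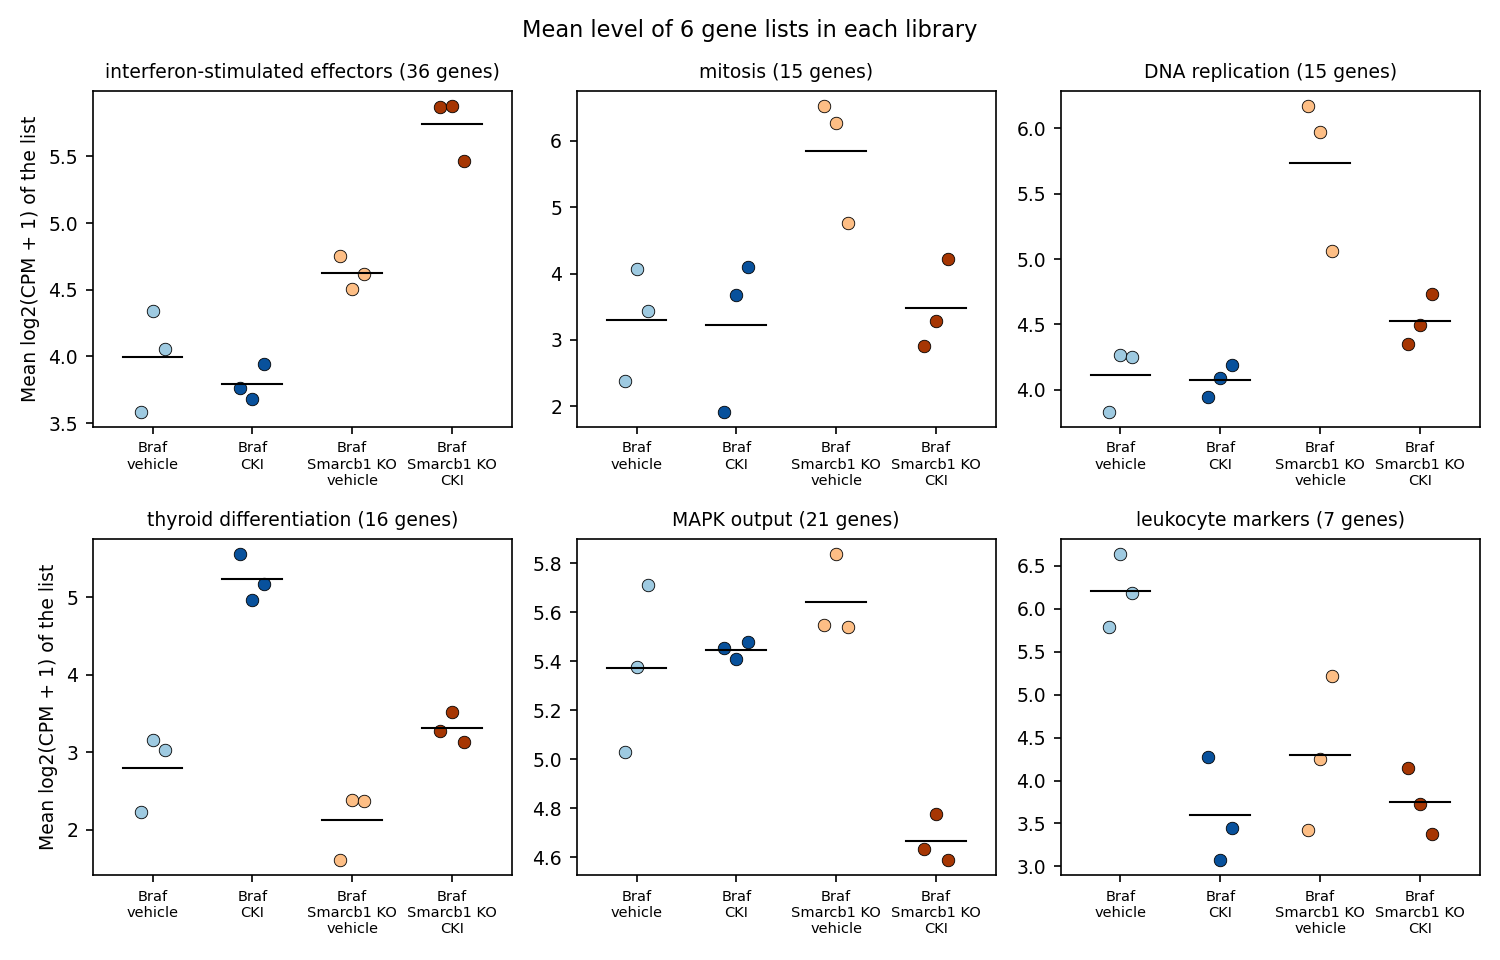
Mean log2(CPM + 1) of 6 gene lists in each library; points are single libraries in replicate order, horizontal lines are means of 3 libraries, and the number of genes stands in each title. The knockout CKI libraries are highest for interferon-stimulated effectors, at 5.47 to 5.88, the knockout vehicle libraries are highest for mitosis, at 4.76 to 6.53, and the Braf CKI libraries are highest for thyroid differentiation, at 4.97 to 5.55.

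Of 21 MAPK output genes, 1 passed in the difference of responses, with a lower response (0.195% of all genes tested). These genes are switched on by ERK, the kinase below MEK, and many feed back on the pathway. The median difference of the list was -1.33, with 15 of 21 genes negative. An unadjusted p under 0.05 was found for 11, all lower, against 1227 lower of 19016 genes tested. With the leukocyte covariate the median was -0.83 and no gene of the list was called. CKI lowered 6 of the 21 in the knockout (2.05% of all genes) and 3 in Braf (5.01%), where 3 rose (7.96%). The list averaged 4.59 to 4.78 log2(CPM + 1) in knockout CKI libraries, below the other 3 groups, at 5.03 to 5.71 in Braf vehicle, 5.41 to 5.48 in Braf CKI and 5.54 to 5.84 in knockout vehicle libraries. Spry4, an inhibitor of growth factor signalling, was the gene that passed. It measured 7.69, 17.9 and 22.0 CPM under vehicle and 38.6, 21.3 and 45.4 CPM with CKI in Braf, and 225, 184 and 113 CPM under vehicle and 31.8, 21.6 and 48.1 CPM with CKI in the knockout (-3.51, SE 0.63, adjusted p = 0.0165). The knockout vehicle libraries were the 3 highest, and with CKI the genotypes overlapped, so the gap went from 3.46, SE 0.48, adjusted p = 3.42e-05 at the start to -0.05 at the end.

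Spred2, another ERK pathway inhibitor, came next, with -2.26 (adjusted p = 0.0585), a start gap of 1.39 (adjusted p = 0.00704) and a fall with CKI in the knockout (-1.70, adjusted p = 0.0115). The ERK phosphatase gene Dusp6 measured 251, 284 and 618 CPM under vehicle and 517, 453 and 425 CPM with CKI in Braf, and 442, 399 and 302 CPM under vehicle and 150.4, 182 and 121 CPM with CKI in the knockout. Its start gap was -0.01 and its end gap -1.62 (adjusted p = 0.016), while the difference did not pass (-1.61, SE 0.63, adjusted p = 0.343). Etv5 and Etv4, ETS factors downstream of ERK, did not pass either. Etv5 had -2.07, SE 0.64, adjusted p = 0.238 and Etv4 had 0.86, SE 0.82, adjusted p = 0.733. Etv4 fell with CKI in both genotypes, with 27.9 to 32.6 CPM with vehicle and 2.06 to 3.12 CPM on the drug in Braf and 8.80 to 19.5 CPM with vehicle and 1.20 to 2.82 CPM on the drug in the knockout. The immediate early and dissociation stress list, which also responds to handling of tissue, had 0 of 13 genes called. Its median difference was -0.34, ran from -0.61 without Braf vehicle replicate 5 to -0.07 without knockout CKI replicate 4, and was 0.27 with the leukocyte covariate.

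Of 16 thyroid differentiation genes, 2 differed in response, Slc5a5 and Tshr, both lower in the knockout (0.195% of all genes tested). Follicular cells take up iodide through Slc5a5, couple it to thyroglobulin (Tg), and do so under the control of thyrotropin and its receptor Tshr. CKI raised 10 of the 16 genes in Braf (7.96% of all genes) and 6 in the knockout (1.8%). The median difference was -0.55, with 13 of 16 genes negative, and the median gap was -1.30 under vehicle and -2.41 with CKI. Leaving out Braf vehicle replicate 4 or 5, knockout vehicle replicate 1 or knockout CKI replicate 2 gave a median difference of -1.25, -0.87, -0.98 or -1.17.

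Slc5a5, the sodium iodide symporter, measured 0.102, 0.253 and 3.26 CPM under vehicle and 605, 186 and 171 CPM with CKI in Braf, and 36.5, 10.7 and 30.6 CPM under vehicle and 17.5, 22.4 and 46.2 CPM with CKI in the knockout. Braf libraries spanned the whole range, lowest under vehicle and highest with CKI, and the 6 knockout libraries lay between them and overlapped each other. The difference was -7.88, SE 1.59, adjusted p = 0.0311. It was a both-levels gene: the knockout was higher at the start (4.40, SE 1.17, adjusted p = 0.00749) and lower at the end (-3.48, SE 1.09, adjusted p = 0.03). Slc5a5 rose in Braf (8.03, adjusted p = 0.00132) and had 0.15 in the knockout (adjusted p = 0.959). The call held in 6 of the 12 fits that left out 1 library and was lost with the leukocyte covariate and in the 12 libraries alone.

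Tshr, an end gene, measured 14.5, 17.4 and 15.9 CPM under vehicle and 635, 248 and 353 CPM with CKI in Braf, and 1.45, 3.14 and 5.35 CPM under vehicle and 8.92, 14.3 and 16.1 CPM with CKI in the knockout. It rose in both genotypes without overlap, by 4.69 in Braf and 1.99 in the knockout. The knockout was lower under vehicle (-2.27, adjusted p = 0.000594) and lower by more with CKI (-4.97, adjusted p = 6.41e-07). The difference was -2.70, SE 0.59, adjusted p = 0.0448, and the call held in 2 of the 12 fits without 1 library and in 3 of the 8 other alternatives. It was lost with RLE size factors, the 12 libraries alone, the replicate block and the leukocyte and Y-linked covariates.

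Tg and Pax8 did not pass in the difference. Tg measured 161, 894 and 196 CPM under vehicle and 11536, 7268 and 19641 CPM with CKI in Braf, and 14.2, 114 and 71.4 CPM under vehicle and 1884, 1901 and 1214 CPM with CKI in the knockout. It rose in both genotypes (4.94 and 4.65), its gap was -2.65 under vehicle and -2.94 with CKI, and the difference was -0.30, SE 0.91, adjusted p = 0.946. Pax8 rose by 1.98 in Braf and 1.65 in the knockout (-0.33, SE 0.50, adjusted p = 0.853). For these 2 genes a p over the threshold does not show equal responses. The deiodinase Dio1 had a difference of -2.73 (adjusted p = 0.398). Of 9 accessory thyroid genes, 0 passed in the difference, 6 rose in Braf (7.96% of all genes) and 4 in the knockout (1.8%). Their median difference was -0.34 and had no stable sign: it was 0.31 without knockout vehicle replicate 3, -0.81 without knockout vehicle replicate 1, and -0.91 and -0.11 without knockout CKI replicates 2 and 4.

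Several both-levels genes with a lower response shared a shape: in Elovl6, Acsl1, Bcl2, Slc26a10, Slc5a5 and Gmnn the group mean was lowest in Braf vehicle and highest in Braf CKI. Elovl6, which lengthens fatty acids, had the smallest p of all genes. It measured 25.01, 28.7 and 27.1 CPM under vehicle and 229, 149.8 and 148 CPM with CKI in Braf, and 88.8, 53.2 and 53.8 CPM under vehicle and 43.9, 45.0 and 32.9 CPM with CKI in the knockout. The difference was -3.39, SE 0.43, adjusted p = 0.00104, and the gap turned from 1.28 (adjusted p = 0.00312) to -2.11 (adjusted p = 8.15e-05). Acsl1, which activates fatty acids, measured 18.1, 25.8 and 22.3 CPM under vehicle and 94.3, 74.2 and 91.7 CPM with CKI in Braf and 46.7, 44.0 and 19.6 CPM under vehicle and 41.5, 37.1 and 41.1 CPM with CKI in the knockout (-1.86, SE 0.38, adjusted p = 0.0311). Sterol synthesis genes, from a list of 13 tested, had 0 called and a median difference of -0.63, which was -0.37 without Braf CKI replicate 1 or knockout vehicle replicate 1 and -0.98 without knockout vehicle replicate 3.

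Bcl2, which blocks apoptosis, measured 7.23, 12.6 and 14.4 CPM under vehicle and 105, 80.9 and 74.0 CPM with CKI in Braf, and 43.7, 90.5 and 46.7 CPM under vehicle and 27.9, 49.9 and 21.4 CPM with CKI in the knockout (-3.79, SE 0.54, adjusted p = 0.0045). It rose in Braf (2.92, adjusted p = 0.000225), and the knockout was higher than Braf at the start and lower at the end. Of 14 apoptosis genes tested, Bcl2 was the 1 that passed in the difference (0.305% of all genes tested). Slc26a10, of the SLC26 family of anion exchangers, measured 2.29, 4.16 and 3.38 CPM under vehicle and 336, 135 and 121 CPM with CKI in Braf, and 23.4, 35.3 and 16.3 CPM under vehicle and 80.9, 73.8 and 60.1 CPM with CKI in the knockout (-4.39, SE 0.67, adjusted p = 0.00739). The 4 groups of Slc26a10 did not overlap. Elovl6 and Slc26a10 were called under every alternative run.

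Polr3g, a subunit of RNA polymerase III, measured 4.18, 4.27 and 5.50 CPM under vehicle and 18.8, 9.65 and 11.7 CPM with CKI in Braf, and 21.7, 10.03 and 13.1 CPM under vehicle and 4.94, 8.43 and 5.82 CPM with CKI in the knockout (-2.75, SE 0.46, adjusted p = 0.0111). Amdhd1, an enzyme of histidine breakdown, rose in Braf (0.217 to 0.764 CPM with vehicle and 7.04 to 20.6 CPM on the drug), while the knockout measured 0.425 to 2.67 CPM with vehicle and 1.02 to 1.73 CPM on the drug (-5.31, SE 0.97, adjusted p = 0.0167). Acpp, an acid phosphatase, had another shape. It measured 25.6 to 39.4 CPM with vehicle and 22.1 to 37.1 CPM on the drug in Braf, and fell in the knockout (71.1 to 138 CPM with vehicle and 7.90 to 17.5 CPM on the drug; -2.79, SE 0.61, adjusted p = 0.0448). The both-levels genes C430049B03Rik, 9230105E05Rik and Gm11295 are predicted or clone-named genes that rose in Braf, and none exceeded 10.5 CPM in any library. Their differences were -4.56, -4.41 and -3.78 (adjusted p = 0.0464, 0.0403 and 0.0112). Of the 12 fits without 1 library, Amdhd1 kept its call in 8 and Acpp in 1.

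With a higher response, 2 both-levels genes remain besides H2-T22. Pla2g15, a lysosomal phospholipase, measured 60.9, 126 and 84.4 CPM under vehicle and 63.9, 46.1 and 62.1 CPM with CKI in Braf, and 49.4, 56.2 and 22.8 CPM under vehicle and 115, 117 and 236 CPM with CKI in the knockout (2.52, SE 0.49, adjusted p = 0.0244). It rose in the knockout (1.86, adjusted p = 0.0049). 2310016C08Rik, which RefSeq names Hilpda and which coats lipid droplets in hypoxia, fell in Braf (118 to 177 CPM with vehicle and 26.1 to 30.8 CPM on the drug). In the knockout it measured 34.2 to 57.1 CPM with vehicle and 34.3 to 68.6 CPM on the drug, which overlapped (2.58, SE 0.49, adjusted p = 0.0197).

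The 6 start genes with a higher response were lower in the knockout than in Braf under vehicle and had no gap with CKI that passed the test. Gstm1, a glutathione transferase, measured 405, 272 and 306 CPM under vehicle and 267, 257 and 273 CPM with CKI in Braf, and 64.6, 86.1 and 126 CPM under vehicle and 280.2, 545 and 486 CPM with CKI in the knockout (2.55, SE 0.40, adjusted p = 0.00921). All 3 knockout vehicle libraries lay below the other 9. The gap was -1.83, SE 0.29, adjusted p = 0.000112 at the start and 0.72 at the end (adjusted p = 0.0822). Gstm1 has close copies in its family that may share reads. Ephx1, an epoxide hydrolase that acts on foreign compounds, measured 472, 413 and 425 CPM under vehicle and 249.7, 458 and 408 CPM with CKI in Braf, and 112, 111 and 159 CPM under vehicle and 339.7, 427 and 899 CPM with CKI in the knockout (2.35, SE 0.42, adjusted p = 0.0152). It too rose in the knockout (2.12) and did not pass in Braf (-0.23, adjusted p = 0.651).

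Ccbl1, a kynurenine aminotransferase that RefSeq names Kyat1, rose in the knockout (13.6 to 17.3 CPM with vehicle and 32.7 to 72.9 CPM on the drug), against 65.4 to 115 CPM with vehicle and 66.0 to 78.1 CPM on the drug in Braf (1.97, SE 0.43, adjusted p = 0.0448). Tmem43 and Hsd3b7 fell in Braf instead. Tmem43, a protein of the nuclear envelope, measured 629 to 925 CPM with vehicle and 286 to 352 CPM on the drug in Braf and 232 to 383 CPM with vehicle and 337 to 438 CPM on the drug in the knockout (1.55, SE 0.33, adjusted p = 0.0448). Hsd3b7, an enzyme of bile acid synthesis, measured 173 to 214 CPM with vehicle and 97.1 to 113 CPM on the drug in Braf and 61.5 to 85.5 CPM with vehicle and 99.0 to 109 CPM on the drug in the knockout (1.43, SE 0.31, adjusted p = 0.0455). H2-T23, described above, completes the 6, and both H2-T23 and Hsd3b7 kept their call in 1 of the 12 fits without 1 library.

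Among the other start genes with a lower response, Nceh1, a hydrolase of cholesterol esters, measured 54.5, 75.8 and 61.5 CPM under vehicle and 93.6, 81.4 and 92.1 CPM with CKI in Braf, and 536, 202 and 301 CPM under vehicle and 103, 83.2 and 99.2 CPM with CKI in the knockout (-2.34, SE 0.39, adjusted p = 0.0107). Its knockout vehicle libraries were the highest and its CKI libraries overlapped between genotypes. Plac1, a gene known from placenta, had 2 counts in the 3 Braf vehicle libraries together and 1572 in the knockout vehicle libraries, a ratio of 624 after scaling (95% interval 172 to 5157, counting error only). With CKI it had 12 counts in Braf and 25 in the knockout, and its difference was -8.38 (adjusted p = 0.0336). Knockout vehicle replicate 2 held 2.52 CPM of Plac1 and replicates 1 and 3 held 26.0 and 22.7 CPM.

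Artn, a ligand of the GDNF family, measured 0.0509, 0.0723 and 0.0393 CPM under vehicle and 3.08, 1.64 and 0.826 CPM with CKI in Braf, and 0.771, 2.61 and 11.4 CPM under vehicle and 3.14, 2.28 and 3.89 CPM with CKI in the knockout (-5.64, SE 1.21, adjusted p = 0.0446). Lypd6, a membrane-anchored regulator of receptors, measured 0.204, 0.0723 and 0.590 CPM under vehicle and 12.9, 5.27 and 0.551 CPM with CKI in Braf, and 4.54, 20.001 and 15.5 CPM under vehicle and 3.20, 3.53 and 1.65 CPM with CKI in the knockout (-6.67, SE 1.41, adjusted p = 0.0423). Both rose in Braf, although Braf CKI replicate 5 lay within the Braf vehicle range for Lypd6. Zfp692, a zinc finger factor, rose in Braf (1.07 to 2.83 CPM with vehicle and 13.3 to 22.8 CPM on the drug) and measured 6.64 to 17.0 CPM with vehicle and 16.3 to 22.9 CPM on the drug in the knockout (-2.75, SE 0.59, adjusted p = 0.0446). Me2, the mitochondrial malic enzyme, rose in Braf (8.28 to 17.1 CPM with vehicle and 33.9 to 68.9 CPM on the drug), with 32.5 to 49.2 CPM with vehicle and 24.4 to 37.3 CPM on the drug in the knockout (-2.40, SE 0.52, adjusted p = 0.0446). The membrane protein gene Tmem184c also rose in Braf (16.5 to 29.3 CPM with vehicle and 36.5 to 72.6 CPM on the drug) and measured 47.3 to 76.9 CPM with vehicle and 36.9 to 47.6 CPM on the drug in the knockout (-2.12, SE 0.45, adjusted p = 0.0446). Rplp0-ps1 is a pseudogene that may take reads of Rplp0, and its knockout vehicle libraries measured 15.4, 9.22 and 1.87 CPM while no other library exceeded 0.509 CPM (-4.16, SE 0.89, adjusted p = 0.0446).

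The 8 end genes with a lower response took 2 shapes. Dgkg, Tmem35, Fbp2, Slc14a2 and Dtnb rose with CKI in Braf and did not pass in the knockout, and Tshr, above, rose by less in the knockout. Dgkg, a diacylglycerol kinase, measured 2.50, 7.85 and 6.45 CPM under vehicle and 51.7, 43.1 and 45.3 CPM with CKI in Braf, and 3.86, 8.82 and 7.33 CPM under vehicle and 6.13, 7.42 and 3.17 CPM with CKI in the knockout (-3.31, SE 0.57, adjusted p = 0.0112). The 3 Braf CKI libraries stood above the other 9, which overlapped. Tmem35 measured 3.01, 5.64 and 4.21 CPM under vehicle and 93.3, 49.3 and 67.7 CPM with CKI in Braf, and 6.76, 2.84 and 7.55 CPM under vehicle and 10.03, 10.4 and 14.6 CPM with CKI in the knockout (-2.996, SE 0.54, adjusted p = 0.0165). Fbp2, a fructose bisphosphatase known from muscle, rose in Braf (1.22 to 2.16 CPM with vehicle and 28.7 to 35.3 CPM on the drug) and measured 0.267 to 0.770 CPM with vehicle and 0.639 to 1.14 CPM on the drug in the knockout (-3.57, SE 0.66, adjusted p = 0.017). Slc14a2, a urea transporter, rose in Braf (4.18 to 8.79 CPM with vehicle and 85.2 to 276 CPM on the drug) and measured 1.21 to 6.82 CPM with vehicle and 1.68 to 7.38 CPM on the drug in the knockout (-4.32, SE 0.90, adjusted p = 0.0361). Dtnb, a dystrobrevin, measured 20.2 to 27.7 CPM with vehicle and 52.5 to 94.4 CPM on the drug in Braf and 17.7 to 34.01 CPM with vehicle and 22.7 to 25.6 CPM on the drug in the knockout (-1.86, SE 0.40, adjusted p = 0.0448).

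In Slc38a1 and Lbh the knockout fell instead. Slc38a1, a transporter of neutral amino acids such as glutamine, measured 20.1, 33.5 and 50.01 CPM under vehicle and 53.1, 45.3 and 42.4 CPM with CKI in Braf, and 57.2, 49.4 and 39.8 CPM under vehicle and 15.3, 15.6 and 13.0 CPM with CKI in the knockout (-2.18, SE 0.35, adjusted p = 0.00981). The knockout CKI libraries lay below the other 9. Lbh, a transcription cofactor, measured 11.6, 18.9 and 16.1 CPM under vehicle and 12.6, 12.2 and 12.4 CPM with CKI in Braf, and 29.2, 24.1 and 32.7 CPM under vehicle and 1.74, 1.67 and 5.04 CPM with CKI in the knockout (-3.02, SE 0.59, adjusted p = 0.025). Lbh did not pass in Braf (-0.33, adjusted p = 0.649) and fell in the knockout (-3.34, adjusted p = 0.000457).

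Markers of further cell types were read beside these results. In the difference of responses, 0 of 9 macrophage, 0 of 10 fibroblast, 0 of 10 endothelial, 0 of 8 T cell and 0 of 9 mast cell and basophil markers passed. The median was 1.94 for macrophage markers (-0.14 with the leukocyte covariate). It was 1.50 for fibroblast markers, and 0.38 without Braf vehicle replicate 4, 2.26 without knockout vehicle replicate 3 and 0.08 with the leukocyte covariate. It was 1.51 for T cell markers, and 0.42 without Braf vehicle replicate 5 and -0.34 with the leukocyte covariate. The sign of the median changed with the library left out for endothelial markers (-1.28 to 0.06) and for mast cell and basophil markers (-0.52 to 3.57). Macrophage markers summed to 1077 to 1626 CPM in Braf vehicle, 178 to 434 in Braf CKI, 259 to 467 in knockout vehicle and 204 to 374 in knockout CKI libraries. Fibroblast markers summed to 645 to 5774, 803 to 2249.8, 197 to 632 and 406 to 553 CPM. Cartilage and airway markers summed to 31478 to 70275, 1724 to 4063, 449 to 6094 and 287 to 3288 CPM. Their mean level was 5.46, 5.28, 3.32 and 3.89 log2(CPM + 1) in the same order, and 0 of 9 passed in the difference (median 0.57, 6 positive). Erythroid markers had a median of -1.63, with 6 of 6 negative, and parathyroid markers -1.52, with 3 of 4 negative, and 0 passed. Fits that left out a library were not read for these lists. In the 15 collagens and matrix genes, the median difference was 1.75, all 15 were positive and 0 passed, and the median was 0.55 without Braf vehicle replicate 4, 1.13 without knockout CKI replicate 4 and 0.85 with the leukocyte covariate.

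Epithelial markers differed between the genotypes at both levels. Of 13, 10 were lower in the knockout under vehicle (14.2% of all genes tested) and 10 with CKI (9.19%), and 0 passed in the difference, whose median ran from -0.38 to 0.68 when 1 library was left out. Of 15 neuronal genes, 7 were higher under vehicle (14.4% of all genes) and 9 with CKI (7.87%), with 0 called in the difference. Of 18 Hox and other homeobox genes, 11 and 10 were higher, against the same shares, with 0 called in the difference.

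The other SWI/SNF knockouts were set beside Smarcb1. Their drug responses come from 6 libraries of Braf Arid1a knockout and 4 of Braf Arid2 knockout, and both comparisons below use the same Smarcb1 libraries. The genes named below were chosen for a difference from Braf in these Smarcb1 libraries, so the comparisons are not independent of that choice. The text on frozen thyroids names Arid2 and Smarcb1 mice and does not name Arid1a mice. Genotype and preparation therefore cannot be told apart in these comparisons either. The response of the Smarcb1 knockout differed from that of the Arid1a knockout for 42 genes (0.221%) and from that of the Arid2 knockout for 134 (0.705%), where the median over all genes was 0.14. Elovl6 changed by 2.71 with CKI in Braf, 1.73 with Arid1a loss, 2.29 with Arid2 loss and -0.69 with Smarcb1 loss. The Smarcb1 response was lower than that of Arid1a (adjusted p = 0.0104) and of Arid2 (adjusted p = 0.00649).

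Gmnn, Bcl2 and Slc26a10 had a lower Smarcb1 response than both other knockouts. Gmnn changed by 1.61, 1.98, 1.89 and -0.96 in that order, Bcl2 by 2.92, 2.41, 1.68 and -0.87, and Slc26a10 by 5.91, 5.51, 5.48 and 1.52. The adjusted p against Arid1a was 0.00263, 0.00692 and 0.00692, and against Arid2 0.0105, 0.047 and 0.0161. Nceh1 changed by 0.48, 0.62, 1.33 and -1.86 (adjusted p = 0.00392 against Arid1a and 0.00149 against Arid2). Gstm1 changed by -0.30, -1.13, -0.26 and 2.24 (adjusted p = 0.00047 against Arid1a and 0.0142 against Arid2).

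Other genes passed against 1 of these knockouts or neither. Cdc20 changed by 2.04 in Braf and by -1.18, -1.65 and -2.02 with loss of Arid1a, Arid2 and Smarcb1, and the Smarcb1 response did not pass against Arid1a (adjusted p = 0.757) or Arid2 (adjusted p = 0.852). Spry4 changed by 1.15, -1.41, -1.53 and -2.36 (adjusted p = 0.65 and 0.537). Irf7 changed by -0.21, -0.16, 1.50 and 2.58, which passed against Arid1a (adjusted p = 0.0173) and not against Arid2 (adjusted p = 0.286). Tshr changed by 4.69, 1.57, 4.49 and 1.99, and neither comparison passed. Slc5a5 changed by 8.03, 7.06, 3.17 and 0.15, again with neither passing (adjusted p = 0.0657 and 0.322).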

How the data were processed

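RNA-seq of mouse thyroid was analysed from 1 deposited table of raw counts per gene, which the authors made with 1 column per sample. The tools named by the authors, per the submitters' processing notes, are HTSeq 0.6.1, STAR 2.4 and DESeq2, beside the build mm9, with neither role nor order. Strand setting and annotation are not given in the sources used here. Columns were matched to labels by title. For 28 of 30 samples a column was matched, and the other 2 are not analysed here.

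Counts were fitted with edgeR 4.0.16 in R 4.3.3 (limma 3.58.1 loaded): TMM factors (0.723 to 1.25 in the 12 libraries), filterByExpr by group, all 28 libraries with 1 term for each of 10 groups (18 residual degrees of freedom), and glmQLFTest for each contrast, with Benjamini-Hochberg adjustment over 19016 genes and a threshold of 0.05. SE was calculated back from the test, as the absolute log2 value over the square root of its F statistic. List levels are means of log2(CPM + 1). Alternatives were RLE factors, no filter, DESeq2 1.42.0, the 12 libraries alone, a replicate block, 3 covariates, other class limits and leaving out each library. The fit was also run on simulated counts, drawn independently with equal mean levels in all groups apart from changes planted in the knockout CKI group. Those counts hold no gaps under vehicle and no differences in cell content or preparation. They therefore do not bear on how the calls moved between fits of the real data. Replicate pairs differed by more than sampling noise. Intervals cover counting error only.

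Genes described were Smarcb1, the 12 called genes with the smallest p in each direction and 3 in each class (at least 5 CPM in the highest group), up to 4 called members of each list, and Tg, Slc5a5, Tshr, Pax8, Etv4, Etv5, Dusp6 and Spry4. Results that may not be printed are not reported here. The other called genes, and list members that did not pass, were named after their values were seen. The comparison, the lists and the rule were chosen with earlier results of these data known. Symbols were matched to RefSeq by name, and promoter sequences are RefSeq's on GRCm38.p6, a build other than the authors'.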

Additional observations from a re-analysis of the deposited data

Results flagged for a closer look

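A test of the difference between the 2 drug responses was passed by 58 genes, and those reported here are listed with their difference on the log2 scale (edgeR, adjusted p under 0.05). No explanation for any of them was tested.

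Among the end genes with a higher response in the knockout were Usp18 (2.88), Irf7 (2.79), Lgals3bp (2.82), Dhx40 (1.83), Oasl1 (3.72), 3110007F17Rik (2.60), Rtp4 (2.02), Ifit3 (3.01), Gm4951 (3.39), Isg15 (2.52) and Ifit1 (2.83). Those with a lower response were Slc38a1 (-2.18), Dgkg (-3.31), Tmem35 (-2.996), Fbp2 (-3.57), Lbh (-3.02), Slc14a2 (-4.32), Tshr (-2.70) and Dtnb (-1.86).

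Start genes with a higher response were Gstm1 (2.55), Ephx1 (2.35), H2-T23 (2.31), Tmem43 (1.55), Ccbl1 (1.97) and Hsd3b7 (1.43). Start genes with a lower response were Nceh1 (-2.34), Trip13 (-4.32), Spry4 (-3.51), Plk4 (-2.33), Cdc20 (-4.06), Dbf4 (-2.93), Ccne2 (-2.81), Cdca7l (-2.63), Rfc5 (-2.28), Plac1 (-8.38), Lypd6 (-6.67), Tmem184c (-2.12), Me2 (-2.40), Rplp0-ps1 (-4.16), Zfp692 (-2.75) and Artn (-5.64).

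Genes in which both levels counted were 2310016C08Rik (2.58), Pla2g15 (2.52) and H2-T22 (1.63) on the higher side, and Elovl6 (-3.39), Bcl2 (-3.79), Slc26a10 (-4.39), Gmnn (-2.57), Polr3g (-2.75), Gm11295 (-3.78), Amdhd1 (-5.31), Slc5a5 (-7.88), Cdca7 (-2.35), Acsl1 (-1.86), 9230105E05Rik (-4.41), Acpp (-2.79) and C430049B03Rik (-4.56) on the lower side.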

How the results depend on the processing

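The 58 genes (21 higher, 37 lower; 22 start, 16 both-levels and 20 end genes) depended on the fit. DESeq2 called 264 (132 higher, 132 lower; 134, 55 and 75 by class), of which 58 are the same genes. The 12 libraries alone gave 5 (1 and 4; 2, 1 and 2), 3 of them shared: Elovl6, Oasl1 and Slc26a10. With the leukocyte level as a covariate 9 genes were called (2 and 7; 1, 4 and 4), and all 9 are among the 58. The Y-linked level as a covariate left 47 genes, 14 of them start genes. RLE size factors gave 57, no filter 61 and the stress level as a covariate 67. Class limits of 3/4 and 1/4 gave 18 start, 22 both-levels and 18 end genes. The causes were not tested.

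Leaving out 1 library gave 19 to 77 genes, 5 to 35 of them higher and 12 to 42 lower, with 4 to 42 start, 6 to 17 both-levels and 6 to 25 end genes. The highest count came without knockout vehicle replicate 3 and the lowest without knockout CKI replicate 2. Over 1280 values of single genes, 776 kept their direction and side of the threshold, 497 kept the direction but missed the threshold, and 7 changed sign. None of the 7 was among the 58: Smarcb1 ranged from -0.45 to 1.02 and Tg from -1.46 to 0.35 when 1 library was left out.

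Replicate numbers are shared by some vehicle and CKI libraries. With the number as a replicate block 31 genes were called (10 higher, 21 lower; 17, 7 and 7 by class), 25 of them among the 58, and the difference for Smarcb1 was -0.091. Same-numbered libraries had correlations of their deviations from the group means of -0.54 and -0.18 in Braf and -0.10 and -0.14 in the knockout. Differently numbered libraries had -0.40 to 0.50. Deviations from a mean of so few libraries are tied to each other, so these values cannot show whether same-numbered libraries share more than a number.

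Depth limits genes of low level most. Artn, Lypd6, Plac1, Amdhd1 and Rplp0-ps1 were among those with under 1 CPM in every Braf vehicle library. Slc5a5 had under 1 CPM in Braf vehicle replicates 2 and 4, which limits the size of its difference.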

Other observations

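Sex-linked transcripts varied within groups and were not balanced between vehicle and CKI. The mean level of the Y-linked list was 3.15 log2(CPM + 1) in Braf vehicle and 5.10 in Braf CKI libraries. In the knockout it was 3.65 under vehicle and 5.57 with CKI. Xist, which silences an X chromosome in female cells, measured 116 CPM in Braf vehicle replicate 5, 84.1 CPM in Braf CKI replicate 5, 15.5 CPM in knockout vehicle replicate 1 and 71.0 CPM in knockout CKI replicate 2. In the same libraries the Y-linked gene Ddx3y measured 33.1, 55.1, 43.5 and 86.0 CPM. Braf vehicle replicate 4 held 315 CPM of Xist and 1 count of Ddx3y, and knockout vehicle replicate 2 held 255 CPM of Xist and 0 counts of Ddx3y. No CKI library was of this kind, and the part of sex in the drug responses was not tested beyond the Y-linked covariate. In the other 6 libraries Xist was at most 1.58 CPM.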
